A study of Homo sapiens with 12 samples.

Results

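SIGLEC15, THBD, RFX8, MME, RASSF4, TMEM158, PAQR6 and KCNIP1 are the 8 genes described here, of 58302 genes in the deposited table. They were chosen by being higher in each of 3 Dicer1 (+/-) clones than in the parental TPC1 cell line, so their rise over TPC1 is a description and was not tested. TPC1 is a human line from a papillary thyroid carcinoma, cultured in RPMI medium with fetal bovine serum, and its 3 libraries carry the genotype wt and the treatment "none". The clones D11, WB1 and TD5, with 3 libraries each, carry the genotype DICER (+/-), and the labels give the cell line as TPC1 for D11 and WB1 and as TPC1 DICER1 (+/-) for TD5. They came from TPC1 cells transiently transfected with a CRISPR/Cas9 plasmid whose guide lies in exon 11 of Dicer1, were sorted by mCherry and grew from 1 cell per well, so that each is a single clone. The wild-type libraries came from untransfected cells, and the labels name no clone that passed through transfection and sorting with Dicer1 intact. The genotype, the transfection and the passage through 1 cell therefore cannot be told apart here. Polyadenylated RNA was sequenced from whole cultures, where fewer cells expressing a gene and less RNA per cell cannot be told apart. Nothing in the labels says that the 3 libraries of a line came from separate cultures, so p-values measure only the spread between these libraries.

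Dicer cuts miRNA precursors into mature miRNAs, which pair through their seed (bases 2 to 8) with sites in mRNAs and lower the output of these mRNAs. The 8 genes do not belong to 1 pathway. Several products sit at the cell surface: SIGLEC15 is a sialic acid-binding lectin known from osteoclasts and macrophages, THBD (thrombomodulin) is the thrombin receptor that turns thrombin towards protein C activation, MME (neprilysin, CD10) is a peptidase that cleaves small peptides outside the cell, and PAQR6 belongs to the progestin and adipoQ receptor family. TMEM158 is a membrane protein first described as a gene induced by Ras. RASSF4 is a Ras association domain protein of the cytoplasm, KCNIP1 is a calcium-binding partner of Kv4 potassium channels, and RFX8 belongs to the regulatory factor X family of transcription factors.

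The values are reads scaled by the authors to 20000000 per library. Behind them lay an estimated 12700000 to 21020000 reads per library, and a floor of 3 reads was worth 2.85 to 4.73 scaled reads. This covers counting error only. Over all libraries the 8 genes had between 12 estimated reads (RFX8) and 1275 (KCNIP1), and in TPC1 counting error was largest for RFX8, THBD and PAQR6, which had the fewest reads there. Markers gave an incomplete thyroid identity in all 12 libraries, with PAX8 at 7248 to 9879 scaled reads, while TSHR, NKX2-1 and SLC5A5 were listed at 0 in all 12. FOXE1, a thyroid transcription factor, had 316, 286 and 280 scaled reads in TPC1 and 93 to 171 in the clones, and it was called lower in D11, WB1 and TD5 (log2 differences -0.95, -1.06 and -1.20, limma adjusted p = 0.000138, 5.16e-05 and 2.79e-05). SLC26A4 rose instead, with means of 4 in TPC1, near the floor, and 12.7, 12 and 11.7 in D11, WB1 and TD5. The sum of the 9 thyroid markers was nearly all PAX8. It was 7553 to 8860 in TPC1, 7742 to 8252 in D11, 8590 to 10026 in WB1 and 9110 to 9927 in TD5. The sum of 5 epithelial markers, mostly KRT8 and KRT18, was 21315 to 24330 in TPC1 and 16887 to 19326 in the clones. FOXE1 and the epithelial sum moved with the contrast that chose the 8 genes, and the part of the markers in it was not tested. DICER1 itself had 1360, 1129 and 1101 scaled reads in TPC1, 977, 1051 and 1093 in D11, 881, 939 and 815 in WB1, with 643, 627 and 809 in TD5. Its mean was 0.869, 0.734 and 0.579 of that in TPC1 in D11, WB1 and TD5, and no clone library exceeded the lowest TPC1 library. DICER1 was called lower in TD5 (log2 difference -0.77, limma adjusted p = 9.02e-05) but not in D11 (-0.19, adjusted p = 0.138). In WB1 the limma adjusted p was 0.00404, but the difference of -0.43 was under 1.5-fold.

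Among the 16027 genes with enough signal to test, all 8 passed the filter, and 8 of 8 were called higher than TPC1 in D11, in WB1 and in TD5. A call needed a Benjamini-Hochberg adjusted p under 0.05 in limma and a change of at least 1.5-fold. Over all genes tested, 2.89% were called higher in D11, 3.39% in WB1 and 1.12% in TD5. All 3 clones shared 0.2% (32 genes) as higher calls. The 8 genes are a part of these 32, and why these 8 were taken is not given here. Because the calls chose the genes, nothing is read from these shares. Some of the fitted rises over TPC1 fell under 1.5-fold in at least 1 alternative setting. On the log2 scale the lowest values were 0.32 for THBD and 0.58 for RASSF4 in D11. They were 0.43 for RFX8 in TD5 and 0.55 for KCNIP1 in WB1. For PAQR6 they were 0.55, 0.51 and 0.49 in D11, WB1 and TD5. In 7 of the 8 genes every clone library lay above every TPC1 library, which held for 5.17% of the genes tested. The exception was THBD, where D11 replicate 2 (47 scaled reads) lay below TPC1 replicate 2 (53). The rule that chose the genes favours such a separation, so nothing is read from this share either.

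SIGLEC15 (ENSG00000197046) lies on chromosome 18, 45825675 to 45844094 of GRCh38, plus strand, with 6 exons. It had 127, 188 and 102 scaled reads in TPC1 replicates 1, 2 and 3, 474, 382 and 454 in D11, 596, 534 and 702 in WB1, with 593, 324 and 489 in TD5. The lowest clone library, TD5 replicate 2, was still above the highest TPC1 library. The means were 139 ± 44.2 (SD, n = 3) in TPC1, 437 ± 48.4 in D11, 611 ± 85.0 in WB1 and 469 ± 136 in TD5, which are 3.14, 4.39 and 3.37 times TPC1. The fitted log2 differences of values per 1000000, with a pseudocount of 1, were 1.55, 2.01 and 1.62 (standard error 0.19). The clones followed the order WB1, TD5, D11, and none of the 3 differences between them was called. Of 8 macrophage and osteoclast markers, OCSTAMP was listed at 0 in all libraries, and PTPRC and ITGAM did not exceed 3 scaled reads. The sum of the 8 markers, nearly all of it CD68, was 937 to 1165 in TPC1, 989 to 1141 in D11, 1273 to 1541 in WB1 and 1238 to 1385 in TD5, and its part in the SIGLEC15 values was not tested.

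The 250 bases upstream of the RefSeq start of SIGLEC15 (GRCh38.p14, chr18:45825425-45825674, plus strand) are shown because the 8 genes were chosen for rising together and their promoters can be compared. Capitals mark the GC box, GGGCGG or its reverse complement CCGCCC, the element to which Sp1-type factors are known to bind.
SIGLEC15 upstream: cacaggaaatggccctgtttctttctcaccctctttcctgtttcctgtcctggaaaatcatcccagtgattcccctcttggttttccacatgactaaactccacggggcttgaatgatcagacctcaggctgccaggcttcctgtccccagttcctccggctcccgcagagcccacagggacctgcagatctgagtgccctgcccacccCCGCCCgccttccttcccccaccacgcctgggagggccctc
The window held 1 GC box, 41 bases before the start, and its GC content was 60%, near the median of 58% over 35116 RefSeq promoters. EPG5, an autophagy gene on the opposite strand, covers the SIGLEC15 locus, and its mean was 2538 ± 67.5 scaled reads in TPC1, 2643 ± 51.9 in D11, 2626 ± 215 in WB1 and 2234 ± 137 in TD5. The libraries were made with a stranded kit, but whether counting used the strand is not given in the sources used here, so the division of reads between overlapping genes is uncertain.

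THBD (ENSG00000178726) is a gene of 1 exon on chromosome 20, 23045633 to 23049672 of GRCh38, minus strand. Its values were 26, 53 and 21 scaled reads in TPC1, 66, 47 and 71 in D11, 153, 188 and 282 in WB1, with 177, 100 and 178 in TD5. WB1 and TD5 lay far above TPC1, whereas D11 overlapped with it. The mean of 33.3 ± 17.2 in TPC1 compared with 61.3 ± 12.7 in D11, 208 ± 66.7 in WB1 and 152 ± 44.7 for the TD5 libraries, which are 1.84, 6.23 and 4.55 times TPC1. On the log2 scale the fitted differences were 0.64, 2.10 and 1.70 (standard error 0.23), and the value in D11 ranged from 0.32 to 0.93 over the alternative settings. THBD was the gene that most set the clones apart. It was higher in WB1 than in D11 by 1.46 on the log2 scale (95% interval 0.96 to 1.95, limma adjusted p = 0.000558) and higher in TD5 than in D11 by 1.05 (0.56 to 1.55, adjusted p = 0.00464). TD5 and WB1 were not called different (log2 difference -0.40, interval -0.90 to 0.09, adjusted p = 0.256).

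Thrombomodulin is best known from endothelial cells. Of 6 endothelial markers, CDH5 was listed at 0 in all libraries, and PECAM1 and VWF did not exceed 7 and 6 scaled reads. The sum of the 6 markers was 80 to 87 in TPC1, 68 to 77 in D11, 43 to 55 in WB1 and 69 to 84 in TD5, most of it TIE1 and TEK, and its part in the THBD values was not tested.

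MME (ENSG00000196549) spans chromosome 3, 155024124 to 155183704 of GRCh38, plus strand, with 23 exons. It had 241, 259 and 229 scaled reads in TPC1, 641, 569 and 716 in D11, 923, 771 and 810 in WB1, with 471, 422 and 704 in TD5. The TPC1 libraries were close together and the lowest clone library, TD5 replicate 2, was clear of them. Means of 243 ± 15.1, 642 ± 73.5, 835 ± 78.9 and 532 ± 151 gave 2.64, 3.43 and 2.19 times TPC1 in D11, WB1 and TD5. MME was lower in TD5 than in WB1 by -0.66 on the log2 scale (95% interval -0.95 to -0.37, limma adjusted p = 0.00591). This call was lost when TD5 replicate 2 was left out (-0.52, adjusted p = 0.0339), because the change then fell under 1.5-fold. Neither clone was called different from D11 (0.37 with adjusted p = 0.132 for WB1, and -0.29 with adjusted p = 0.141 for TD5). CD10 is a marker of B cell precursors, and of the B cell markers MS4A1 did not exceed 2 scaled reads. The sum of the 5 B cell markers, mostly PAX5, was 91 to 135 in TPC1, 72 to 76 in D11, 164 to 204 in WB1 and 137 to 181 in TD5, and its part in the MME values was not tested.

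MME-AS1, a transcript from the opposite strand within the MME locus (chromosome 3, 155158370 to 155183285), followed MME at a lower level. Its values were 13, 21 and 17 scaled reads in TPC1, 44, 37 and 47 in D11, 57, 53 and 58 in WB1, with 24, 29 and 37 in TD5. No clone library overlapped with TPC1, and the clones stood in the same order as for MME. MME-AS1 is described here for its place inside MME. It was called higher in D11 (log2 difference 0.76, limma adjusted p = 0.000624) and in WB1 (1.04, adjusted p = 4.13e-05). TD5 was not called, since its fitted difference of 0.43 was under the 1.5-fold threshold (limma adjusted p = 0.0423). The pseudocount of 1 makes fitted differences smaller at such low values. Mean scaled reads were 17 in TPC1 and 30 in TD5. Whether these reads came from MME-AS1 or from MME cannot be decided without the strand setting of the counting.

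PAQR6 (ENSG00000160781), on chromosome 1, 156243320 to 156248117 of GRCh38, minus strand, with 8 exons, was the most even of the 8 genes among the clones. Its values were 33, 44 and 30 scaled reads in TPC1, 112, 93 and 66 in D11, 81, 77 and 97 in WB1, with 87, 82 and 78 in TD5. All 9 clone libraries were above the 3 TPC1 libraries, and the widest spread was within D11. The means of 35.7 ± 7.37, 90.3 ± 23.1, 85 ± 10.6 and 82.3 ± 4.51 gave 2.53, 2.38 and 2.31 times TPC1. The 3 differences between clones lay between -0.09 and -0.03 on the log2 scale with limma adjusted p from 0.700 to 0.903. Their 95% intervals reached from 0.757 to 1.21 as ratios, so a fitted difference of 1.5-fold between clones lies outside all 3. This holds only for the fitted scale, since the pseudocount of 1 makes differences smaller at such low values.

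TMEM158 (ENSG00000249992) is a gene of 1 exon on chromosome 3, 45224466 to 45226287 of GRCh38, minus strand. It had 491, 735 and 457 scaled reads in TPC1, 987, 962 and 1104 in D11, 912, 1066 and 1336 in WB1, with 1314, 923 and 1175 in TD5. TPC1 replicate 2 came closest to the clones but stayed below the lowest of them. The means of 561 ± 152, 1018 ± 75.8, 1105 ± 215 and 1137 ± 198 gave 1.81, 1.97 and 2.03 times TPC1. Between clones the log2 differences were 0.04 to 0.15 (limma adjusted p from 0.531 to 0.879), with 95% intervals from 0.818 to 1.39 as ratios.

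The upstream 250 bases of TMEM158 (RefSeq, GRCh38.p14, chr3:45226288-45226537, minus strand) are shown as the window with the highest GC content among these genes, with GC boxes in capitals where matches that overlap run together.
TMEM158 upstream: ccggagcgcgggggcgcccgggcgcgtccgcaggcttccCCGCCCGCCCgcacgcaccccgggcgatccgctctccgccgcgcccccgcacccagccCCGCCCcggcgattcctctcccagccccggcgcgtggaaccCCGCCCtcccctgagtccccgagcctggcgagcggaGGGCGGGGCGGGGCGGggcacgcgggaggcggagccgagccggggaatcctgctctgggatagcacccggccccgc
Its GC content was 82.4%, and it held 7 GC boxes. The transcript itself, with 66.8% GC, was also the richest in GC of the 8.

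RASSF4 (ENSG00000107551) lies on chromosome 10, 44959407 to 44995891 of GRCh38, plus strand, with 11 exons. Its values were 126, 144 and 94 scaled reads in TPC1, 204, 208 and 246 in D11, 252, 290 and 405 in WB1, with 424, 338 and 400 in TD5. D11 and TD5 did not overlap, while WB1 lay between them and overlapped with TD5. The means were 121 ± 25.3, 219 ± 23.2, 316 ± 79.7 and 387 ± 44.4, or 1.81, 2.60 and 3.19 times TPC1. RASSF4 was higher in TD5 than in D11 by 0.77 on the log2 scale (95% interval 0.44 to 1.09, limma adjusted p = 0.00245). WB1 was not called different from D11 (0.47, adjusted p = 0.0805) or from TD5 (0.30, adjusted p = 0.203), although the difference from D11 was called once WB1 replicate 1 was left out (0.61, adjusted p = 0.0355). The means rose in the order TPC1, D11, WB1, TD5, the reverse of that of DICER1. Of the other genes TMEM158 had this order too and the rest did not. No TMEM158 difference between clones was called, and those of TD5 from D11 and WB1 changed sign with a GC correction. TPC1 stands lowest by the choice of the genes, which leaves only the order of the clones. A link between these orders and DICER1 was not tested.

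KCNIP1 (ENSG00000182132) spans chromosome 5, 170353487 to 170736632 of GRCh38, plus strand, with 8 exons. It had 655, 979 and 620 scaled reads in TPC1, 1293, 1222 and 1336 in D11, 1072, 1115 and 1379 in WB1, with 2005, 1759 and 1604 in TD5. Every TD5 library was above every D11 and WB1 library, and these were above TPC1. Means of 751 ± 198, 1284 ± 57.6, 1189 ± 166 and 1789 ± 202 gave 1.71, 1.58 and 2.38 times TPC1. Both differences of TD5 had limma adjusted p under 0.05 without a fitted change of 1.5-fold. Against D11 the difference was 0.47 (95% interval 0.19 to 0.75, limma adjusted p = 0.0184). Against WB1 it was 0.58 (0.30 to 0.87, limma adjusted p = 0.00970). The second lay at the edge of the fold threshold and was called when TD5 replicate 2, TD5 replicate 3 or WB1 replicate 3 was left out (0.59, 0.66 and 0.69). D11 and WB1 were not called different (-0.12, adjusted p = 0.707).

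RefSeq gives KCNIP1 several starts, and the window before the first (GRCh38.p14, chr5:170353237-170353486, plus strand) is shown because it holds no GC box and so differs from the other windows printed here.
KCNIP1 upstream: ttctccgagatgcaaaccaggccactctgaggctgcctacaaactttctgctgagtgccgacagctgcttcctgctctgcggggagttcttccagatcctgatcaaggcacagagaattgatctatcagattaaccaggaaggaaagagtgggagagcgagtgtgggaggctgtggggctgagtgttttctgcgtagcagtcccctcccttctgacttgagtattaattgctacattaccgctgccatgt
Its GC content was 52%, the lowest among these genes, whereas the window of a later KCNIP1 start had 74% and 6 GC boxes. The table does not say which start was used in these cells.

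RFX8 (ENSG00000196460) lies on chromosome 2, 101397359 to 101475112 of GRCh38, minus strand, with 12 exons. It had the lowest mean of the 8 genes in TPC1 and TD5, with 20, 33 and 18 scaled reads in TPC1, 94, 68 and 90 in D11, 164, 132 and 145 in WB1, with 75, 52 and 52 in TD5. The WB1 libraries were above all others, and TPC1 was below all clones. The means of 23.7 ± 8.14, 84 ± 14, 147 ± 16.1 and 59.7 ± 13.3 gave 3.55, 6.21 and 2.52 times TPC1. RFX8 was lower in TD5 than in WB1 by -1.08 on the log2 scale (95% interval -1.40 to -0.75, limma adjusted p = 0.000346), and higher in WB1 than in D11 by 0.69 (0.36 to 1.01, adjusted p = 0.00900). Without D11 replicate 2 this second call was lost (0.57, adjusted p = 0.0674). TD5 and D11 were not called different (-0.39, adjusted p = 0.0794).

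Put on a scale per 1000000 and per kilobase of transcript, TMEM158 and KCNIP1 were the most abundant of the 8 in TPC1 at 15.4 and 18.5, and they reached 27.9 to 31.2 and 29.3 to 44.0 in the clones. SIGLEC15 stood at 2.36 in TPC1 and 7.40 to 10.4 in the clones. THBD, RFX8 and PAQR6 were the least abundant, at 0.412, 0.553 and 0.905 in TPC1. MME went from 2.15 to between 4.70 and 7.37, and RASSF4 from 1.67 to between 3.02 and 5.33.

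The clones were not alike in which of the genes stood highest. WB1 held the highest mean for 4 genes (SIGLEC15, THBD, RFX8 and MME), TD5 for 3 (RASSF4, TMEM158 and KCNIP1) and D11 for PAQR6. Of the 24 differences between clones, 6 were called, 2 in each pair, from 4 genes: THBD, RFX8, MME and RASSF4. Over all genes tested, 2.85% were called between WB1 and D11, 3.99% between TD5 and D11, and 2.33% between TD5 and WB1. The clone libraries compared here also served to choose the genes, so nothing is read from the counts beside these shares. For SIGLEC15, whose TD5 libraries were widely spread, the 95% intervals of the 3 differences reached from 0.574 to 1.82 as ratios, and those of WB1 against D11 and of TD5 against WB1 include a difference of 1.5-fold.

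**Figure D1:**
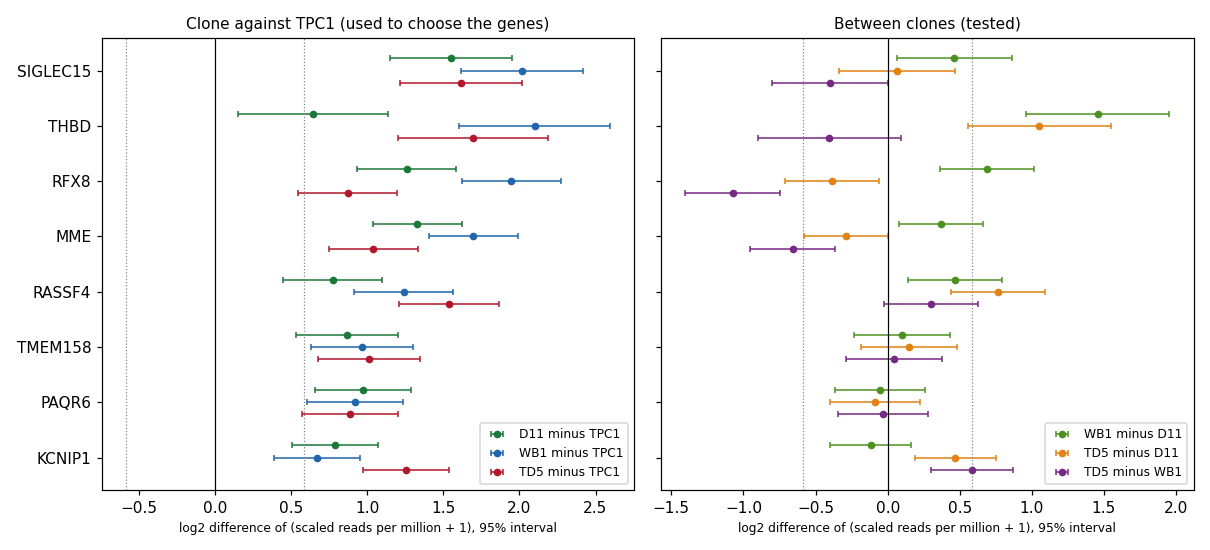
Fitted log2 differences of (scaled reads per 1000000 + 1) with 95% intervals, on the left for each clone minus TPC1, the contrast that chose the genes, and on the right between clones; dotted lines mark 1.5-fold. THBD and RFX8 have the widest separation between clones, while the intervals of TMEM158 and PAQR6 between clones all contain 0.

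Libraries of 1 line also differed from each other in these genes. TPC1 replicate 2 was the highest TPC1 library for 8 of 8 genes, whereas it was the highest for 27.3% of all genes tested and for 21 of the 32 genes called higher in all 3 clones. Without it, the mean of the clones over TPC1 went from 3.64 to 4.41 for SIGLEC15, from 4.21 to 5.97 for THBD, from 4.09 to 5.10 for RFX8 and from 2.76 to 2.85 for MME. It went from 2.53 to 2.79 for RASSF4, from 1.94 to 2.29 for TMEM158, from 2.41 to 2.73 for PAQR6 and from 1.89 to 2.23 for KCNIP1. Each ratio had to rise once the highest TPC1 library was left out, so only the size of the change is described. The median deviation of the 8 genes from the mean of their line was 0.35 on the log2 scale in TPC1 replicate 2 and -0.25 in TPC1 replicate 3. In the clones it ran from -0.23 in TD5 replicate 2 to 0.21 in WB1 replicate 3. Between pairs of the 8 genes, Pearson's r of these deviations over the 12 libraries had a median of 0.54, was above 0 for 26 of 28 pairs, and ranged from -0.19 (MME and PAQR6) to 0.96 (THBD and TMEM158). The points share their libraries, and 3 libraries of a line leave only their deviations, so this is a description. The same values for pairs of other genes are not given here, so nothing particular to the 8 genes is read from them.

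**Figure D2:**
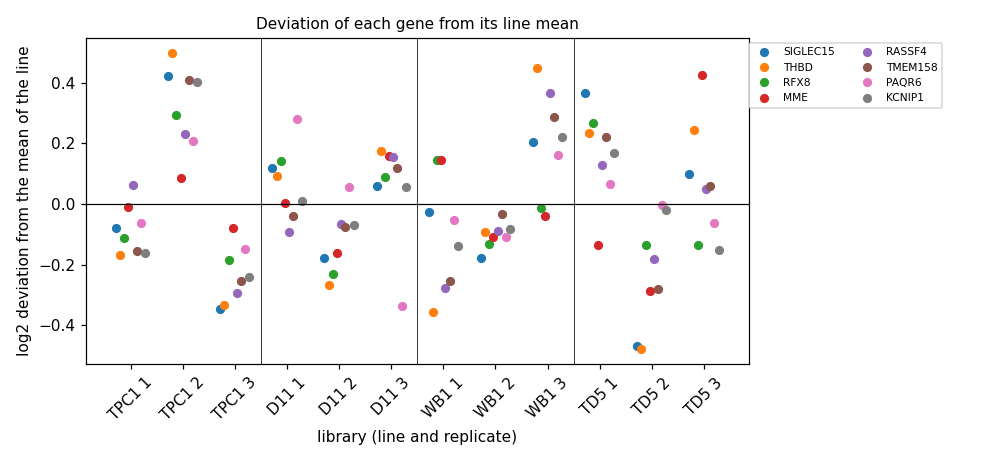
Deviation of each gene, in log2 of (scaled reads per 1000000 + 1), from its mean in the same line, for the 12 libraries. All 8 genes lie above 0 in TPC1 replicate 2 and below 0 in TPC1 replicate 3, WB1 replicate 2 and TD5 replicate 2.

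For each gene, the genes with the most similar pattern over the 12 libraries were taken from 15526 tested genes that averaged 1 per 1000000 or more. For THBD they were VEGFA, a vascular growth factor (r = 0.99), and NAV1 (0.99), and VEGFA had means of 909 scaled reads in TPC1, 1267 in D11, 2222 in WB1 and 2038 in TD5. SIGLEC15 was most like RAD52, a DNA repair gene (0.98), and the calcium channel gene ITPR3 (0.97). For RFX8 these were MTMR11 (0.98) and TCTEX1D2 (0.97), for MME DARS (0.97) and the acetyltransferase gene KAT2B (0.97), and for RASSF4 BX640514.2 (0.98) and ZHX2 (0.97). TMEM158 was most like SNTB1 and the kinase gene NEK6 (0.97 each), PAQR6 was most like HADH (0.95) and MAN2C1 (0.93), and KCNIP1 was most like KANK2 (0.96) and TNNT1 (0.94). These values rest on 4 lines and 12 libraries and come from the top of a large search.

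Genes that work with the 8, or belong to their families, were compared with TPC1 by the same test. Of 112 listed genes, 69 could be tested, and 4 were called higher and 3 lower in D11, 8 higher and 3 lower in WB1, and 0 higher and 3 lower in TD5. The medians of their log2 differences were 0.11, 0.09 and 0.09, beside 0.05, 0.06 and 0.00 over all genes tested, of which 1.95%, 1.59% and 1.48% were called lower in D11, WB1 and TD5. In TD5, where limma called 0 of these relatives higher, 15 of 69 had an adjusted p under 0.05 in either direction when no minimum fold was asked, and 26 had an unadjusted p under 0.05. In D11 28 of 69 and in WB1 27 of 69 passed the adjusted p alone, so most of these were under the fold threshold in the fit. The share of all genes tested that passed p alone is not given here. Nothing about the relatives is therefore read from these counts, or from the counts by p alone below.

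Among the partners and relatives of SIGLEC15, the adaptor TYROBP and the kinase SYK were listed at 0 in all libraries, as were SIGLEC6, SIGLEC7, SIGLEC8 and SIGLEC12. Only 3 of 19 genes could be tested, and of these CD33, another Siglec of myeloid cells, fell from a mean of 131 scaled reads in TPC1 to 55 in D11 (log2 difference -1.01) and 28.3 in WB1 (-1.64), with a value of 101 in TD5 (-0.31, not called). The limma adjusted p were 2.52e-05, 1.79e-07 and 0.106.

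In the thrombomodulin, protein C and fibrinolysis list 18 of 23 genes were tested, with 1 lower in D11, 3 higher and 1 lower in WB1, and 2 lower in TD5. PROCR, the protein C receptor, had 1253 ± 57.7 scaled reads in TPC1 and 1024 to 1106 on average in the clones, and F3 (tissue factor), which starts coagulation, had 110 in TPC1 and 99 to 115 in the clones, and neither was called. PROS1, the cofactor of activated protein C, rose in WB1 (299 to 486 scaled reads, log2 difference 0.67), as did the protease-activated receptor gene F2RL1 (47.7 to 86.3, 0.66) and the protease inhibitor gene SERPINE2 (1744 to 2648, 0.60). THBS1, encoding thrombospondin, fell in WB1 from 31775 to 17747 (-0.86). TFPI2, an inhibitor of coagulation proteases, fell in D11 (123 to 57.7, -0.90) and TD5 (56, -0.92) and had 143 in WB1. F2RL2 fell in TD5 (394 to 238, -0.69). KLF2 and KLF4, transcription factors known to raise THBD in endothelium, were not called in any clone. KLF2 had 95.7 scaled reads in TPC1 and 138, 94.3 and 103 in D11, WB1 and TD5. KLF4 had 108 in TPC1 and 145, 123 and 100. In D11 both passed the adjusted p but stayed under 1.5-fold. The log2 differences there were 0.45 for KLF2 (limma adjusted p = 0.00998) and 0.37 for KLF4 (limma adjusted p = 0.0484).

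Of the membrane peptidases and peptide receptors around MME, 10 of 19 were tested. PHEX, a peptidase of the same family, rose in D11 (30.3 to 63.3 scaled reads, 0.73) and WB1 (61.7, 0.71) and had 54 in TD5 (0.54, not called). ECE1, the endothelin-converting enzyme, had 3047 in TPC1 and 2832 to 3316 in the clones, and DPP4 had 1646 and 1396 to 1909, and neither was called. EDNRA, an endothelin receptor, rose in WB1 from 246 to 570 (1.13). NPR3, the clearance receptor of natriuretic peptides, was the only one of the 69 relatives called in all 3 clones, with a mean of 64.3 ± 27.0 scaled reads in TPC1 and 31, 34.3 and 28 in D11, WB1 and TD5 (-0.70, -0.59 and -0.77). Its TPC1 libraries had 95, 44 and 54, and without replicate 1 the log2 differences were -0.45, -0.34 and -0.53 and no clone was called (limma adjusted p = 0.0560, 0.142 and 0.0718). The call in WB1 was also lost without WB1 replicate 1 or 2, and that in TD5 without TD5 replicate 1.

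Among the RASSF family and the Hippo kinases 15 of 17 genes were tested. RASSF8 rose in D11 (403 to 627 scaled reads, 0.61) and WB1 (674, 0.71), and RASSF5 rose in D11 (205 to 318, 0.59). RASSF3 had 843 in TPC1 and 1244, 1239 and 1211 in the clones, with log2 differences of 0.55, 0.55 and 0.51 that stayed under 1.5-fold (limma adjusted p = 0.000253, 0.000248 and 0.000947). In the progestin and adipoQ receptor list 11 of 12 were tested, and MMD rose in D11 (269 to 433, 0.65) and WB1 (430, 0.64) while PAQR5 rose in WB1 (956 to 1493, 0.65). None of the 7 tested RFX factors was called by limma in any clone, with list medians of 0.11, 0.03 and -0.06, although 4, 3 and 1 of the 7 had an unadjusted p under 0.05 in D11, WB1 and TD5. For KCNIP1 the channel genes themselves were scarce: KCND1 had means of 12 to 15.7 scaled reads, KCND3 of 0.667 to 8, and KCND2 and DPP10 were at or near 0. Of the Kv4 subunits and calcium sensors 5 of 13 were tested, and limma called none, with 1 of the 5 at an unadjusted p under 0.05 in each clone. Several calls near 1.5-fold were lost with 1 library left out: in WB1 SERPINE2 (without TPC1 replicate 1 or 3 or WB1 replicate 1), F2RL1 and PHEX (without TPC1 replicate 3) and PAQR5 (without TPC1 replicate 3 or WB1 replicate 2), and in D11 RASSF8 (without TPC1 replicate 3 or D11 replicate 3) and RASSF5 (without TPC1 replicate 2 or D11 replicate 2 or 3). Their log2 differences were then 0.46 for PAQR5 without TPC1 replicate 3 and 0.55 to 0.58 in the other cases.

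**Figure D3:**
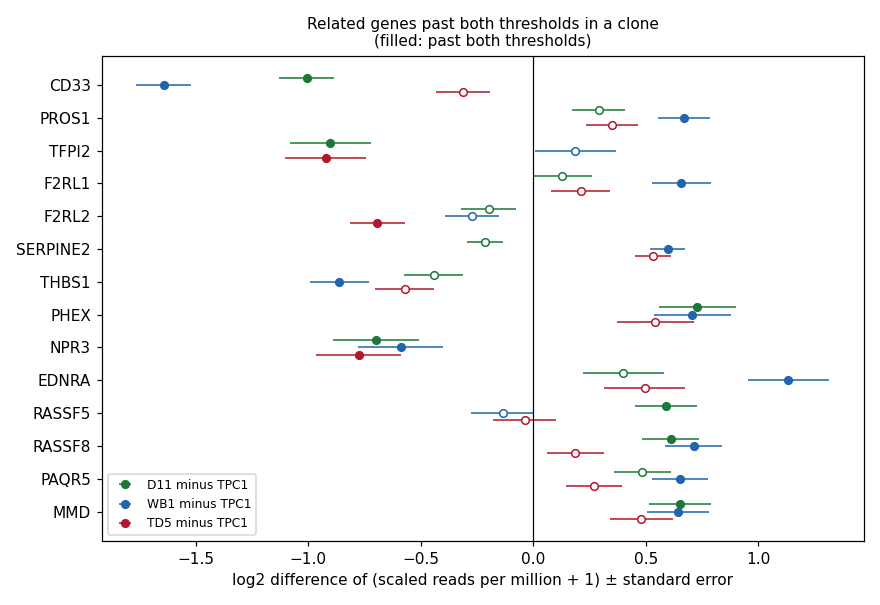
Log2 differences from TPC1 of (scaled reads per 1000000 + 1) ± standard error for the related genes called in at least 1 clone; filled points passed both thresholds. NPR3 is filled and below 0 in all 3 clones, which did not hold without TPC1 replicate 1, and CD33 has the lowest value, in WB1.

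Neighbours within 1 Mb were compared because position had not been used to choose the genes. Of 109 tested neighbours, 1 was called higher in D11, 4 higher in WB1, and 3 higher and 1 lower in TD5, with median log2 differences of 0.07, 0.07 and 0.04, beside 0.05, 0.06 and 0.00 over all genes tested. Over all genes the shares called higher were 2.89%, 3.39% and 1.12%, and 1.48% were called lower in TD5. Beside MME-AS1, these were IL1R1, the interleukin-1 receptor gene near RFX8 (246 to 420 scaled reads in WB1, 0.72), CREG2 near RFX8 (16.7 to 37.7 in WB1, 0.64) and PLCH1 near MME (241 to 394 in WB1, 0.67). In TD5 they were DEPP1, BGLAP, BCAN-AS1 and INSYN2B. DEPP1, listed as C10orf10 and lying within RASSF4 on the opposite strand (chromosome 10, 44970981 to 44978809), had 10, 14 and 17 scaled reads in TPC1, 10, 17 and 21 in D11, 24, 16 and 39 in WB1, with 153, 52 and 125 in TD5. It rose in TD5 by 1.86 on the log2 scale (limma adjusted p = 0.000142), and each TD5 library was above all other libraries. BGLAP (osteocalcin), whose start lies 5.93 kb from that of PAQR6, went from 139 in TPC1 to 299 in TD5 (0.99) and shares sequence with the readthrough gene PMF1-BGLAP, so its reads are uncertain. Of the others, BCAN-AS1, listed as AL365181.2, rose from 30.7 to 57.7 (0.61), and INSYN2B, listed as FAM196B, near KCNIP1, fell from 254 to 147 (-0.72). Near the threshold, CREG2 in WB1 was not called without WB1 replicate 1 (0.53), INSYN2B in TD5 without TD5 replicate 1 (-0.58), and BCAN-AS1 in TD5 without TD5 replicate 1 or 3 (0.54 and 0.55). Around PAQR6, which had 50 tested neighbours, limma called 0 in D11 and 0 in WB1, where 18 and 21 had an unadjusted p under 0.05. SIGLEC15, THBD and TMEM158 had 6, 4 and 19 tested neighbours and limma called none in any clone. An unadjusted p under 0.05 was found for 1 to 3, 1 and 5 to 9 of them. No share of all genes tested stands beside these counts by p alone, so nothing is read from them.

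**Figure D4:**
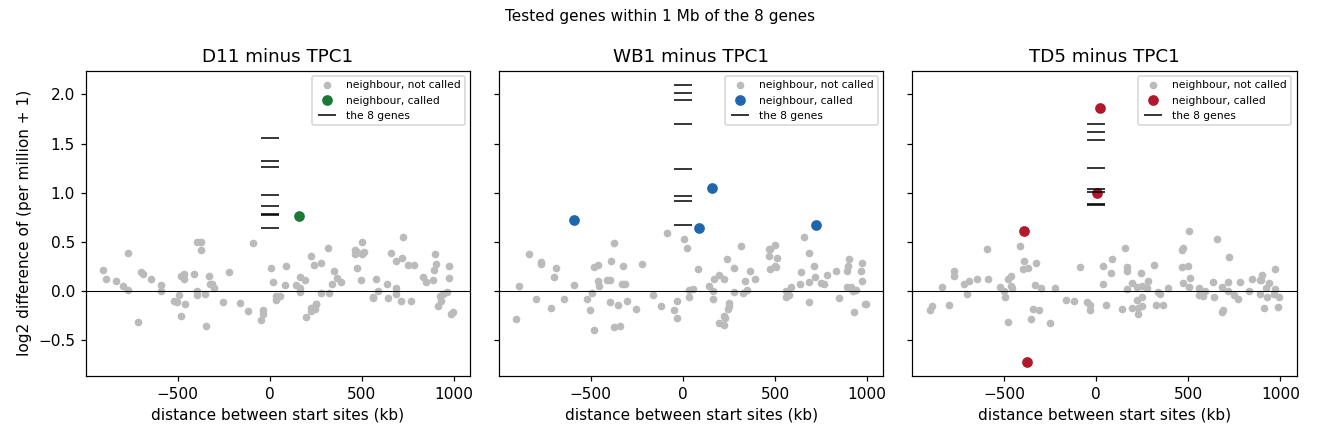
Log2 difference from TPC1 of (scaled reads per 1000000 + 1) for tested genes within 1 Mb, against the distance in kb between start sites, for each clone; black bars at 0 kb are the 8 genes and coloured points the called neighbours. Most neighbours lie close to 0, and the highest coloured point in TD5 is DEPP1.

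RefSeq promoter windows were found for 6 of the 8 genes (10 windows, with 4 for MME and 2 for KCNIP1) and not for THBD and RFX8. The median GC content of the 10 windows was 70.6%, and 9 of 10 lay above the median of all promoters. A GC box occurred in 8 of 10 windows, and in 42.6% of all promoters. TATAAA, the core of the TATA box, occurred in 0 of 10 and in 10.7% of all. On both strands, the AP-1 site TGANTCA (6.57% of all), the cyclic AMP response element TGACGTCA (1.65%), the E-box CACGTG (6.34%), the KLF site CCACACCC (2.97%) and the EGR1 site GCGTGGGCG (0.720%) had no match in the 10 windows. The TEAD site GGAATG had 1, in MME, and 11.9% of all promoters held it. These are matches of letters only, and windows of MME overlap. The promoters behind the shares were not limited to genes tested here, whereas the 8 genes all passed the filter. Nothing is therefore read from the windows beside these shares.

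Because Dicer makes miRNAs, sites for 12 miRNAs were searched in the 3′ UTRs of the 8 genes, as exact matches to the 7 seed bases. The miRNAs themselves were not measured in these libraries. The 11 different seeds gave 15 sites in 7 genes: 3 each in SIGLEC15, MME and RASSF4, 2 each in PAQR6 and KCNIP1, 1 each in THBD and RFX8 and 0 in TMEM158. The 3′ UTRs had 189 bases in RFX8 to 3245 in MME, against a median of 1432 over 11685 tested genes. The sites below are examples: those of miR-30, which include 2 in SIGLEC15, those of miR-221/222 in RFX8 and MME, and that of let-7. Sites of miR-16, miR-31 and miR-34a also occurred in more than 1 gene and are not printed. Capitals mark the seed in the miRNA and its complement in the site.
hsa-miR-30a-5p: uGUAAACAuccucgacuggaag
SIGLEC15, chr18:45842542-45842564, plus strand: agacaggaaacTGTTTACagggc
SIGLEC15, chr18:45843968-45843990, plus strand: cagtactcccaTGTTTACtgcag
MME, chr3:155181694-155181716, plus strand: tggaaaagaacTGTTTACtgctt
hsa-miR-221-3p: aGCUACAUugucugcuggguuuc
hsa-miR-222-3p: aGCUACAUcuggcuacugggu
RFX8, chr2:101397428-101397450, minus strand: gtatataatagATGTAGCattgt
MME, chr3:155181498-155181520, plus strand: aatctgcacctATGTAGCtctgc
hsa-let-7a-5p: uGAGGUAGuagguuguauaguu
RASSF4, chr10:44993443-44993465, plus strand: tgcctgtgtgtCTACCTCtctga
A miR-30 match occurred in 2 of 8 genes and in 19.3% of tested 3′ UTRs, and a miR-221/222 match in 2 of 8 and 10.0%. The let-7 match was in 1 of 8 and 11.6%. Of the other seeds, miR-16 matched 3 of 8 (26.1% of all), miR-31 and miR-34a 2 each (15.2% and 18.3%), and miR-17 and miR-29a 1 each (26.3% and 17.2%). No match was found for miR-21 (10.4% of all), miR-146b (13.2%) and miR-200b (20.4%). A match does not say that a site is in use.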

How the data were processed

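The authors prepared stranded mRNA libraries, sequenced them as paired ends, aligned the reads and counted them per gene, and the submitters' processing notes name STAR 2.5.3a, HTSeq 0.9.1 and GRCh38. The deposited values are a score and not raw counts: reads scaled by the authors to 20000000 per library and written as whole numbers (sums 20009833 to 20014191). Steps between these whole numbers gave the estimated reads. The study names a quasi-likelihood method for counts, which scaled values are not, so limma 3.58.1 (R 4.3.3) was used on log2(scaled reads per 1000000 + 1), with a mean-variance trend and a term for each line. All 12 libraries entered the fit. Tested were the 16027 of 58302 genes with 1 per 1000000 or more in at least 3 libraries. P-values were adjusted by Benjamini-Hochberg over all of these genes, and calls needed adjusted p under 0.05 and at least 1.5-fold in the fitted difference. The pseudocount of 1 makes that difference smaller for genes with low values.

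The 8 genes, the lists and the tests were chosen with earlier results of these data known. The text names the 8 genes, DICER1, every listed relative or neighbour called in a clone, the 2 genes most like each of the 8, and markers. Other values of relatives and markers, among them those of PROCR, F3, KLF2, KLF4, ECE1, DPP4, RASSF3, FOXE1 and the KCND genes, were picked after they were seen. Gene positions came from GENCODE v44 (57532 of 58302 identifiers matched), promoters and miRNAs from RefSeq (GRCh38.p14), and 3′ UTRs of at least 100 bases from the GENCODE transcripts.

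Replicate numbers are in the labels. In D11 and TD5, deviations of same-numbered libraries from their line means correlated at 0.11, 0.18 and 0.36. In the other pairs of lines these correlations ran from -0.28 to 0.11. An alternative fit, the replicate block, added a term for the replicate number over all 12 libraries, and so for TPC1 and WB1 too. The labels say nothing of a shared batch, so the pairing is uncertain. Tables and plots were made in Python 3.11.15 (numpy 2.4.6, pandas 2.3.3, matplotlib 3.10.9). Alternatives covered the filter, the pseudocount, the fold threshold, scaling, GC content, a replicate block and leaving out each library. Values of some marker genes are not reported here.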

Additional observations from a re-analysis of the deposited data

Results flagged for a closer look

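For 4 of the 8 genes the rise over TPC1 differed between clones by a test of the difference itself (limma, adjusted over 16027 genes). THBD was higher in WB1 than in D11 by 1.46 on the log2 scale and higher in TD5 than in D11 by 1.05. RFX8 was higher in WB1 than in D11 by 0.69, and its difference of TD5 from WB1 was -1.08. The difference of TD5 from WB1 was -0.66 for MME. RASSF4 was higher in TD5 than in D11 by 0.77. In each of these 6 comparisons the libraries of the lines did not overlap. The clone libraries had also served to choose the genes, so the number of genes that differed is a description. Single libraries were not tested as outliers, since each line holds 3.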

How the results depend on the processing

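Of the 24 differences between clones, no call changed direction under any alternative. RFX8 between WB1 and D11 fell under 1.5-fold with a pseudocount of 4 (0.47), and MME between TD5 and WB1 with a GC correction (-0.53), so that 1 of the 8 genes was called in each of these pairs. KCNIP1 between TD5 and WB1 was called with median-of-ratios scaling (0.64). The replicate block left 2, 2 and 2 genes called, as without it, and changed no call among the 8 genes (THBD between WB1 and D11 with adjusted p = 0.00176 under the block). Leaving out 1 library gave 1 to 3 genes between WB1 and D11, 2 between TD5 and D11, and 2 to 3 between TD5 and WB1.

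The related genes called against TPC1 (7, 11 and 3 in D11, WB1 and TD5) became 1, 5 and 0 with a pseudocount of 4, 28, 27 and 15 with no minimum fold, and 4 in WB1 with a GC correction. Leaving out 1 library gave 5 to 8, 7 to 12 and 2 to 9, with 9 in TD5 without its replicate 2 and 7 in WB1 without TPC1 replicate 3. The called neighbours (1, 4 and 4) became 0, 1 and 2 with a pseudocount of 4, 0, 2 and 2 with a filter of 5 per 1000000, 33, 31 and 18 with no minimum fold, and 3 in D11 with a pseudocount of 0.1. Leaving out 1 library gave 1 to 3, 4 to 7 and 2 to 7: without TPC1 replicate 1 there were 3 in D11, without TPC1 replicate 2 there were 2 in D11 and 7 in WB1, and in TD5 there were 2 without its replicate 1 and 7 without its replicate 2.

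Reversals came only in differences near 0 that were never called. With the GC correction these were SIGLEC15 TD5 against D11 (-0.034), TMEM158 TD5 against D11 (-0.0306) and TMEM158 TD5 against WB1 (-0.15), and with median-of-ratios scaling PAQR6 TD5 against WB1 (0.0129). With 1 library left out, SIGLEC15 TD5 against D11 ranged from -0.12 to 0.30, TMEM158 WB1 against D11 from -0.0422 to 0.23 and TD5 against WB1 from -0.0831 to 0.19, PAQR6 WB1 against D11 from -0.22 to 0.0862, TD5 against D11 from -0.26 to 0.053 and TD5 against WB1 from -0.088 to 0.0472. The cause of these changes was not tested. Fits over fewer than 3 libraries a line assume that the rest vary alike, and at 12 to 142 estimated reads RFX8 is limited by depth.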

Other observations

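Some genes outside the 8 deviated with them within lines, a pattern searched for after the values were seen. Over the 12 libraries, r between a gene's deviations from its line means and the median of the 8 genes was 0.98 for SNX33, 0.97 for VEGFA and 0.96 for SH3PXD2A, and -0.96 for AC007998.2. VEGFA had 847, 1141 and 740 scaled reads in TPC1, 1306, 1120 and 1376 in D11, 2116, 2027 and 2523 in WB1, with 2355, 1536 and 2223 in TD5, so that TPC1 replicate 2 and TD5 replicate 2 stood out in the same directions as in the 8 genes. These values come from the ends of a search over all tested genes.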
